A study of Homo sapiens with 8 samples.

Results

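PLK1 and 9 other core regulators of mitosis were examined in RNA of MIAPaCa-2, a human cell line established from a pancreatic carcinoma. The set comprised the kinases PLK1, AURKA, AURKB, CDK1, BUB1 and TTK, the cyclins CCNB1, CCNB2 and CCNA2, and CDC20. The 10 genes were chosen by name, and all of them were present among the 63568 Ensembl genes of the count table and among the 9931 genes that had at least 10 reads over both conditions. METTL3 encodes the catalytic part of the enzyme complex that writes N6-methyladenosine (m6A) into messenger RNA. Cells with a short hairpin RNA against it are called METTL3-KD cells, and cells with a control hairpin are called control cells. No drug or other agent separated the groups in the labels, and whether each line was a clone or a pool was not given in the sources used here.

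In methylated RNA immunoprecipitation sequencing (MeRIP-seq), fragmented RNA is precipitated with an antibody against m6A, and a part of it is kept as input to measure expression. The 8 samples were an m6A and an input library of each condition on 2 lanes, and the labels of each pair of lanes differed in the lane number only. The lanes were therefore summed and counted as 1 library, so no difference between conditions has a replicate check. All intervals and floors cover counting error only, because PCR copies are not separate molecules. Counts summed over genes came to 1609215 and 1628753 in the control input lanes and to 906240 and 926765 in the METTL3-KD input lanes. In these inputs 2730 and 10463 genes had a read. METTL3 had 0 reads in the 4 input lanes, so the targeted gene gave no check of the labels. Of general epithelial and carcinoma markers, not chosen as specific to this line, KRT8 and KRT18 were read in both inputs, and EPCAM and CDH1 in neither. VIM, which this line also carries, was read in both. KRT19 had 1 control read and 201 METTL3-KD reads. CDKN2A, which this line has lost, and the markers of leukocytes (PTPRC) and fibroblasts (COL1A1) had 0 reads.

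Entry into mitosis is driven by CDK1 bound to cyclin B, which PLK1 helps to activate. PLK1 and the Aurora kinases then build the spindle, BUB1 and TTK hold the spindle checkpoint until all chromosomes are attached, and CDC20 switches on the anaphase-promoting complex (APC/C), a ubiquitin ligase that destroys securin and cyclin B. Transcripts of these genes accumulate together in the G2 and M phases of cycling cells. The m6A methyltransferase acts within DRACH motifs, where D is A, G or T, R is A or G and H is A, C or T, and m6A is known for its enrichment near stop codons and in 3′UTRs.

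Among the 10 genes, PLK1 and BUB1 carried an m6A peak, and both peaks were in the control list. The sequences beneath these peaks are shown because they are the places at which the m6A readout touched the set, each as 30 bases of the transcript strand (GRCh37, the build that the authors call hg19) with the DRACH motif nearest to the summit in capitals.
PLK1 3′UTR, plus strand, chr16:23701390-23701419: gccctcccctccGGACTggtgccctcctca
BUB1 coding sequence, minus strand, chr2:111398923-111398952: tgagcaagtgcaTGACTgtgaaatcattca

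The PLK1 peak spanned 23701382 to 23701481 of chromosome 16 in exon 10 of 10, with its summit at 23701432, position 48 of the 304 nt 3′UTR. The adenosine of the GGACT motif was at 23701404, position 20 of the 3′UTR and 28 nt from the summit. It was the only DRACH motif within 50 nt on either side of the summit. The BUB1 peak spanned 111398908 to 111399007 of chromosome 2 in exon 22 of 25, and its window of 101 nt held 3 DRACH motifs, the nearest adenosine lying 20 nt from the summit. Windows of this length around the summits of exonic control peaks held a DRACH motif in 83.8% of 1443 cases, so a motif beneath a peak was the usual case in this list.

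The study set out to demethylate the adenosine of this GGACT motif and designed a guide RNA against a neighbouring stretch of PLK1. Its 20 base target matched the minus strand at 23701427 to 23701446, positions 43 to 62 of the 3′UTR, over the peak summit and downstream of the motif. It is shown because it marks where that guide binds, and it does not contain the adenosine itself.
PLK1 guide target, minus strand, chr16:23701427-23701446: agtatgggccccagatgcag

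The primers used for quantitative PCR of PLK1 methylation matched 23701369 to 23701390 on the plus strand and 23701413 to 23701432 on the minus strand. The amplified stretch therefore ran from the end of the coding sequence to position 48 of the 3′UTR, and it contained the motif. No base of these oligonucleotides lay beyond position 62, whereas exons of ERN2, a gene on the opposite strand, overlapped the last 58 bases, from 23701631 to 23701688.

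**Figure D1:**
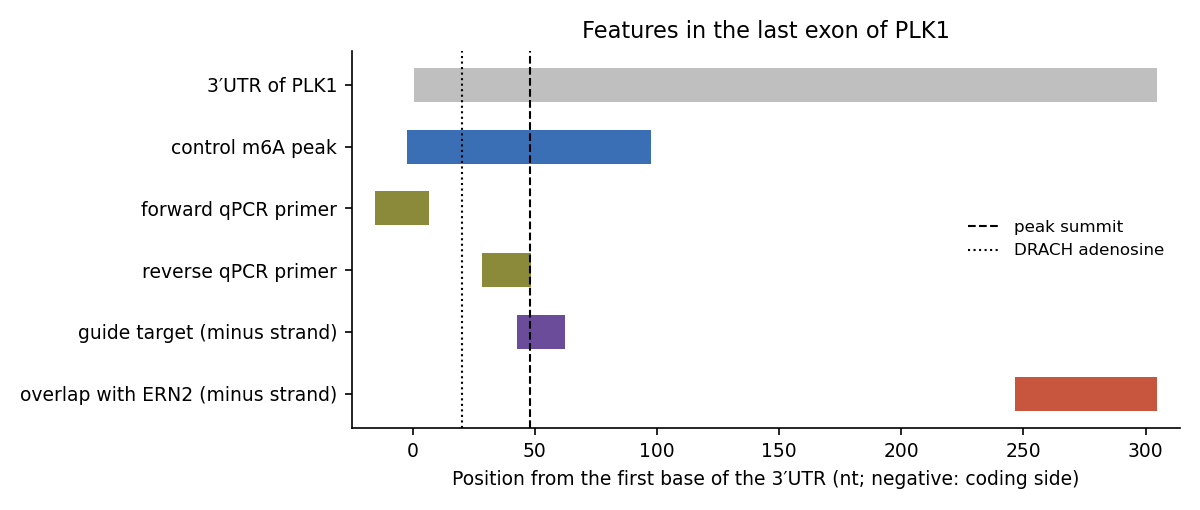
Features in the last exon of PLK1, drawn to scale, with the position in the 3′UTR in nt on the horizontal axis (its first base is 1 and the base before it is 0). The control m6A peak, the primers and the guide target lie together at the start of the 304 nt 3′UTR, and the 58 bases shared with ERN2 lie at its end.

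PLK1 (ENSG00000166851.10, chromosome 16, 23688977 to 23701688, plus strand), the polo-like kinase of mitotic entry and cytokinesis, was the only one of the 10 genes with fewer scaled reads in METTL3-KD cells by the size threshold used, a log2 ratio under -2. In the control, 507 reads were counted in lane 1 and 542 in lane 2, whereas METTL3-KD cells gave 7 and 12. These are raw reads of libraries of unlike depth, and lanes of 1 library are not replicates, so their agreement does not check the difference. The log2 ratio of reads, METTL3-KD over control with library sizes scaled by TMM (trimmed mean of M values), was -3.54, with an exact Clopper-Pearson 95% interval of -4.33 to -2.94. Relative to the 1871 genes with at least 10 reads in each input, whose median log2 ratio was -0.61, the PLK1 value was -2.93. PLK1 had been picked out by the study from these libraries, so its ratio is a description. In a bulk library a smaller share of cells in G2/M and less PLK1 RNA per cell cannot be told apart.

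The reads behind these values were strongly duplicated, with 310 aligned reads per distinct position in the control input and 25.7 in the METTL3-KD input, as recorded by the peak caller. Reads per gene clustered at 509 and 1037 reads in the control and at 17.2 and 34.0 reads in METTL3-KD cells. A count divided by the lower of these modes is given here in units. PLK1 came to 2.06 units in the control and 1.10 units in METTL3-KD cells. Rounded to 2 and 1 whole units and scaled in the same way, its log2 ratio was -3.69 with an exact interval of -9.57 to 0.57, which includes 0. Counted in units, a lower PLK1 level was therefore not resolved at this depth, although the interval that treats each read as independent excluded 0.

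**Figure D2:**
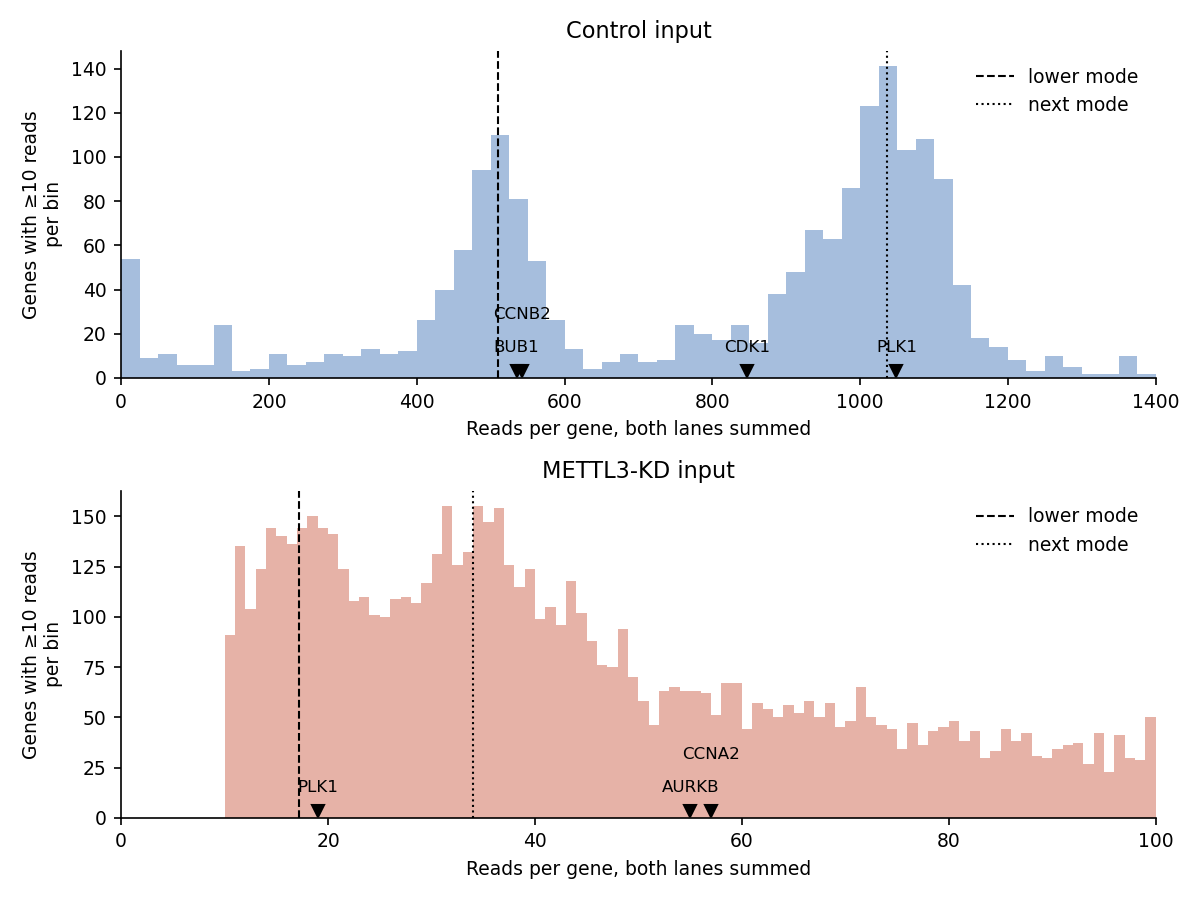
Number of genes by reads per gene, both lanes summed, in bins of 25 reads for the control input (top) and of 1 read for the METTL3-KD input (bottom), among genes with at least 10 reads. Lines mark the lower and next modes and triangles the members within each axis range; PLK1 sits at the next mode of the control (1049 reads) and near the lower mode of METTL3-KD cells (19 reads).

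The 19 METTL3-KD reads of PLK1 equalled those of ERN2 lane by lane. ERN2 (ENSG00000134398.8, chromosome 16, 23701631 to 23724547, minus strand), a sensor of unfolded protein in the endoplasmic reticulum, was not read in the control, and its METTL3-KD lanes held 7 and 12 reads. These lane counts were found in 15 of the 9583 genes with at least 10 METTL3-KD reads (0.157%). Among 975 pairs of genes on opposite strands with overlapping exons, both with at least 10 METTL3-KD reads, 106 pairs (10.9%) had the same lane counts as each other. Counts summed over genes exceeded the aligned reads recorded by the peak caller. They were 3237968 against 2880835 in the control input and 1833005 against 1337448 in the METTL3-KD input. The kit marks strand, but its use in counting was not stated, and whether the same reads were counted for both genes was not tested. With these reads left out, PLK1 had 1049 control and 0 METTL3-KD reads, a log2 ratio of -8.32. Against a floor of 3 reads its scaled reads were then at least 76.5-fold lower. That floor is far under the 17.2 reads of a METTL3-KD unit, and no bound against a floor in units was computed. The control reads of PLK1 were not shared in this way, since ERN2 had none.

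Of the kinases that act beside PLK1, CDK1 and BUB1 were read in both inputs. CDK1 (ENSG00000170312.11, chromosome 10, 62538089 to 62554610), the kinase of mitotic entry, had 419 and 428 control reads and 122 and 141 METTL3-KD reads. Its log2 ratio was 0.50, with an interval of 0.30 to 0.71 in reads and of -1.89 to 3.39 in units. BUB1 (ENSG00000169679.10, chromosome 2, 111395105 to 111435640), the checkpoint kinase at the kinetochore, had 252 and 283 control reads and 137 and 144 METTL3-KD reads. It had the highest log2 ratio of the 4 genes read in both inputs, 1.26, with intervals of 1.05 to 1.48 in reads and of -1.38 to 6.70 in units. For both kinases the interval in reads lay above 0 and the interval in units included it, and neither ratio lay beyond 2. Under total count scaling both ratios changed sign, to -0.86 for CDK1 and -0.11 for BUB1.

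AURKA, TTK and AURKB had no control reads. AURKA (ENSG00000087586.13, chromosome 20, 54944445 to 54967393), the Aurora kinase of the spindle poles and an activator of PLK1, had 100 and 98 METTL3-KD reads. TTK (ENSG00000112742.5, chromosome 6, 80713604 to 80752244), which starts checkpoint signalling, had 90 and 80. AURKB (ENSG00000178999.8, chromosome 17, 8108051 to 8113918), the kinase of the chromosomal passenger complex, had 25 and 30. Against the floor of 3 control reads, these genes were at least 302-fold, 259-fold and 83.8-fold higher in scaled reads. With library sizes scaled by total counts, these bounds were 117, 100.1 and 32.4, and without a lane they were 170 or 172, 139 or 155, and 43.1 or 52.2. That floor is far under the 509 reads of a control unit. Against a floor of 3 units the same ratios were 0.593, 0.509 and 0.165, all under 1, so no direction was resolved for these 3 kinases in units.

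CCNB1 had the most METTL3-KD reads of the set. This cyclin (ENSG00000134057.10, chromosome 5, 68462962 to 68474072), the main partner of CDK1, was not read in either control lane and reached 255 and 251 reads in METTL3-KD cells. Against the floor of 3 reads it was at least 771-fold higher. Its 29.4 units made it the only member with a ratio above 1 against a floor of 3 control units, 1.51. The lower end of its exact interval in units was a log2 ratio of 0.19. In reads, the bound was 298 under total count scaling and 436 or 439 without a lane. The values in units used TMM scaling. Lowered by the same factor as the bound in reads, the ratio against 3 units would fall under 1 and the interval end under 0. The direction in units therefore depended on the scaling. CCNB2 (ENSG00000157456.3, chromosome 15, 59397325 to 59417244), the second B-type cyclin, had 264 and 278 control reads and 59 and 84 METTL3-KD reads, a log2 ratio of 0.27 with an interval of -0.0051 to 0.54 in reads. Under total count scaling it was -1.09. The closely related B-type cyclins thus had different patterns in the control input, with 1.06 units for CCNB2 and none for CCNB1. A count of 0 in the control allows up to 3.69 units by the exact Poisson interval, so this difference was within the interval. CCNA2 (ENSG00000145386.5, chromosome 4, 122737599 to 122745038), the cyclin of S phase and G2, was not read in the control and had 24 and 33 METTL3-KD reads. Its ratio was at least 86.9 against the floor in reads and 0.171 against the floor in units. The bound in reads was 33.6 under total count scaling and 41.4 or 57.4 without a lane. Its exons overlap EXOSC9 by 254 bp, and EXOSC9 had no reads in either input.

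CDC20 (ENSG00000117399.9, chromosome 1, 43824652 to 43828874), the APC/C activator, was not read in the control and had 73 reads in each METTL3-KD lane. It was at least 223-fold higher against 3 reads, and the ratio against 3 units was 0.437. The bound in reads was 86.0 under total count scaling and 126 or 127 without a lane. Its pseudogene CDC20P1 had 15 METTL3-KD reads, so the CDC20 count may be split with a near-identical copy and is uncertain by that amount. Named pseudogenes of AURKA, AURKB, BUB1 and CCNB2 had 0 reads.

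**Figure D3:**
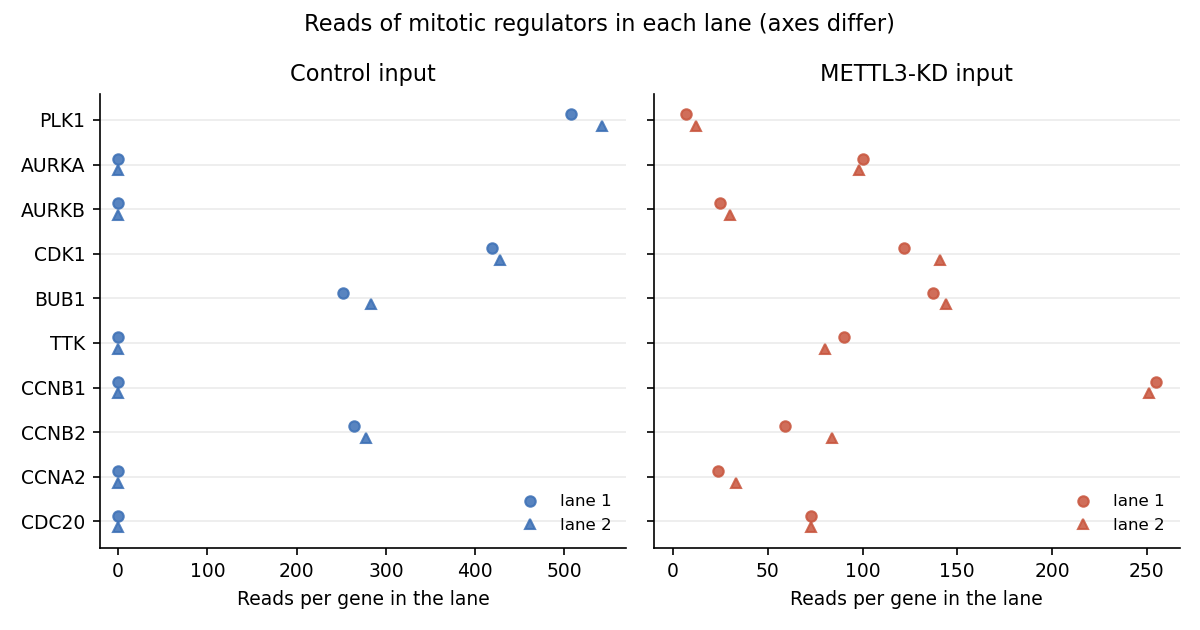
Reads per gene in each lane of the control input (left) and the METTL3-KD input (right), circles for lane 1 and triangles for lane 2, with different axis ranges. PLK1 has the most control reads of the 10 genes (507 and 542) and the fewest METTL3-KD reads (7 and 12), and 6 genes lie at 0 in both control lanes.

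Levels were compared between genes per length of exon, taken as the union of all annotated exons of a gene, 4760 bp for PLK1. In METTL3-KD cells CCNB1 stood first with 208 reads per kb, followed by CDC20 (72.6), AURKA (67.6), CDK1 (67.3), CCNB2 (51.9), BUB1 (44.6), TTK (37.1), AURKB (24.5), CCNA2 (20.7) and PLK1 (3.99 reads per kb). In units per kb, the exact Poisson interval of CCNB1 was 7.98 to 17.1 and that of CDC20 1.72 to 7.83, so these neighbours did not overlap. That separation was narrow. CDC20 came to 8.47 units before rounding to 8, and reads split with CDC20P1 would raise it, so the separation is uncertain. The other neighbours in the order overlapped. With these lengths PLK1 was at 0.232 units per kb, with an interval up to 1.17. It lay under the intervals of CCNB1, CDC20, AURKA, CDK1, CCNB2 and BUB1, and it overlapped those of TTK, AURKB and CCNA2. A shorter length for PLK1 would raise its interval, and whether the separation then holds was not tested. In the control the order among the genes with reads was PLK1 (220 reads per kb), CDK1 (217), CCNB2 (197) and BUB1 (84.9). PLK1 and CDK1 were not resolved from each other there, since both came to 2 whole units with an interval of 0.24 to 7.22 units, and the 6 genes at 0 could hold up to 3.69 units each.

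**Figure D4:**
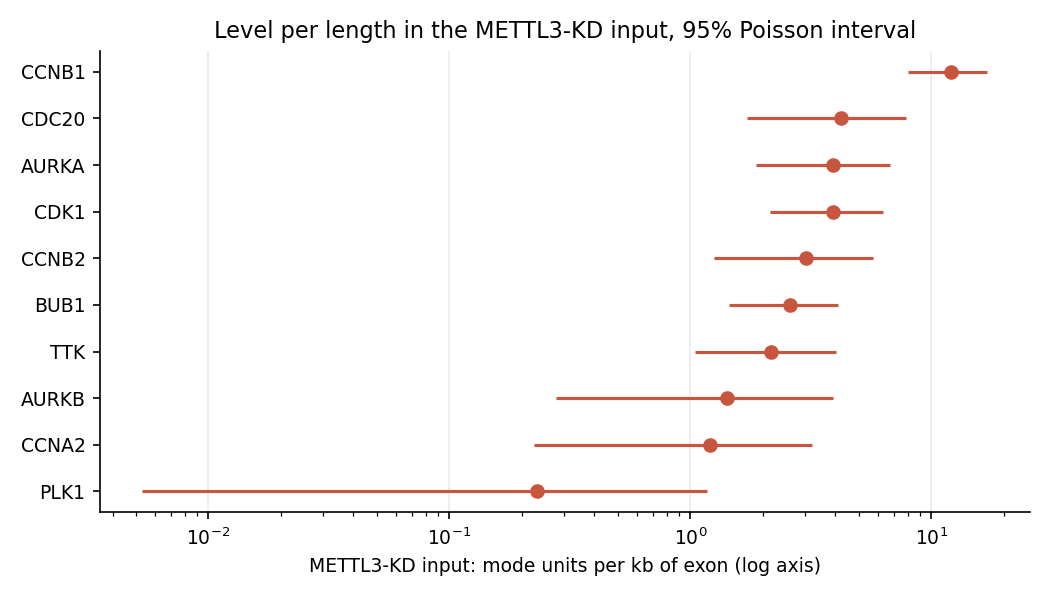
Level of each member in the METTL3-KD input, in units (reads divided by 17.2) per kb of all annotated exons on a log axis. Points are the values and lines the exact 95% Poisson intervals of the rounded units. The point of CCNB1 lies above all others, with its interval only narrowly above that of CDC20. PLK1 lies at the bottom, overlapping TTK, AURKB and CCNA2.

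Of the 10 genes, 1 had a log2 ratio under -2, where 7.37% of all 9931 genes did, and 6 had a log2 ratio above 2, where 79.1% of all genes did. These 6 were the genes with 0 control reads, a state shared by 74.3% of all genes tested. They entered the comparison through their METTL3-KD reads alone, so their ratios had to be high. The median log2 ratio was 6.30 over the 10 genes and 5.60 over all genes tested. Among genes with at least 10 control reads, a choice that in turn favours low ratios, 33.1% lay under -2 and 6.6% above 2, and of the 4 such members PLK1 lay under -2 and none above 2. At the next control mode, where PLK1 lay, 937 genes had 892 to 1273 control reads. Of these, 44.4% were under -2 and 234 had no more METTL3-KD reads than PLK1, and their median was 71 METTL3-KD reads.

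To set PLK1 against genes expressed in the same phase of the cell cycle, the G2/M list of the Seurat package was used (54 genes, 7 of them members). PLK1 itself is not on this list. Of the 51 genes tested, 2 (3.92%) lay under -2 and 30 (58.8%) above 2, and 27 (52.9%) had 0 control reads. The shares over all genes tested were 7.37%, 79.1% and 74.3%. The 20 non-members with at least 10 control reads had a median log2 ratio of 0.01, against -0.98 over all genes with such counts. None of these 20 had a lower log2 ratio than PLK1, where 391 of the 2212 genes with at least 10 control reads did. No test of this difference was made. The 2 above 2, chosen for naming once their values were known, were the proliferation marker MKI67 (2.26) and the kinetochore protein gene CENPF (2.23). Their intervals in units, with TMM scaling, were 0.08 to 5.09 and -0.18 to 7.74, and that of CENPF included 0. Under total count scaling, 28 G2/M genes rather than 30 lay above 2.

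The G2/M genes nearest to PLK1, by the absolute difference in log2 ratio over the pair of inputs, were TACC3, G2E3, HJURP, LBR and NUF2. TACC3, whose product stabilises spindle microtubules, had 555 and 556 control reads and 11 and 13 METTL3-KD reads, a log2 ratio of -3.30 and a distance of 0.24. G2E3, a ubiquitin ligase gene, had 525 and 516 control reads and 16 and 17 METTL3-KD reads, with a log2 ratio of -2.76. These were the G2/M genes under -2. Like PLK1, both had close to 2 control units (2.18 and 2.04), and their intervals in units, up to 0.57 and 1.09, included 0. HJURP, the chaperone of the centromeric histone, the lamin B receptor gene LBR and NUF2, a kinetochore component, were further off at -1.60, -1.58 and -1.46.

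S-phase genes were used as the other phase. Of the 43 genes listed, 38 were tested, of which 6 (15.8%) lay under -2 and 21 (55.3%) above 2. The shares over all genes tested were 7.37% and 79.1%. All 6 were among the 17 S-phase genes with at least 10 control reads, and 33.1% of all genes with such counts lay under -2. The 17 with at least 10 control reads had a median log2 ratio of -1.69, under the 0.27 of the 23 G2/M genes with such counts, members included. BLM, TYMS, GINS2 and TIPIN, named after their values were seen, had lower log2 ratios than PLK1. The intervals in reads of TYMS (-5.39 to -3.83), GINS2 (-5.09 to -3.39) and TIPIN (-4.72 to -3.20) overlapped that of PLK1, so these differences were not resolved. BLM, a DNA helicase gene, had 550 and 579 control reads and 0 METTL3-KD reads. TYMS, the gene of thymidylate synthase, had 800 and 811 control reads and 5 and 10 METTL3-KD reads. The PLK1 value therefore lay within the range of the S-phase list and outside the range of the G2/M list (-3.30 to 2.26). Its distance of 0.24 from TACC3 was not resolved, since the interval of TACC3 in reads, -3.99 to -2.76, overlapped that of PLK1. In units PLK1, TACC3, GINS2 and TIPIN had the same log2 ratio, -3.69, so the place of PLK1 in these ranges was not resolved. With 1 library per condition, no test of the difference between the lists was made.

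**Figure D5:**
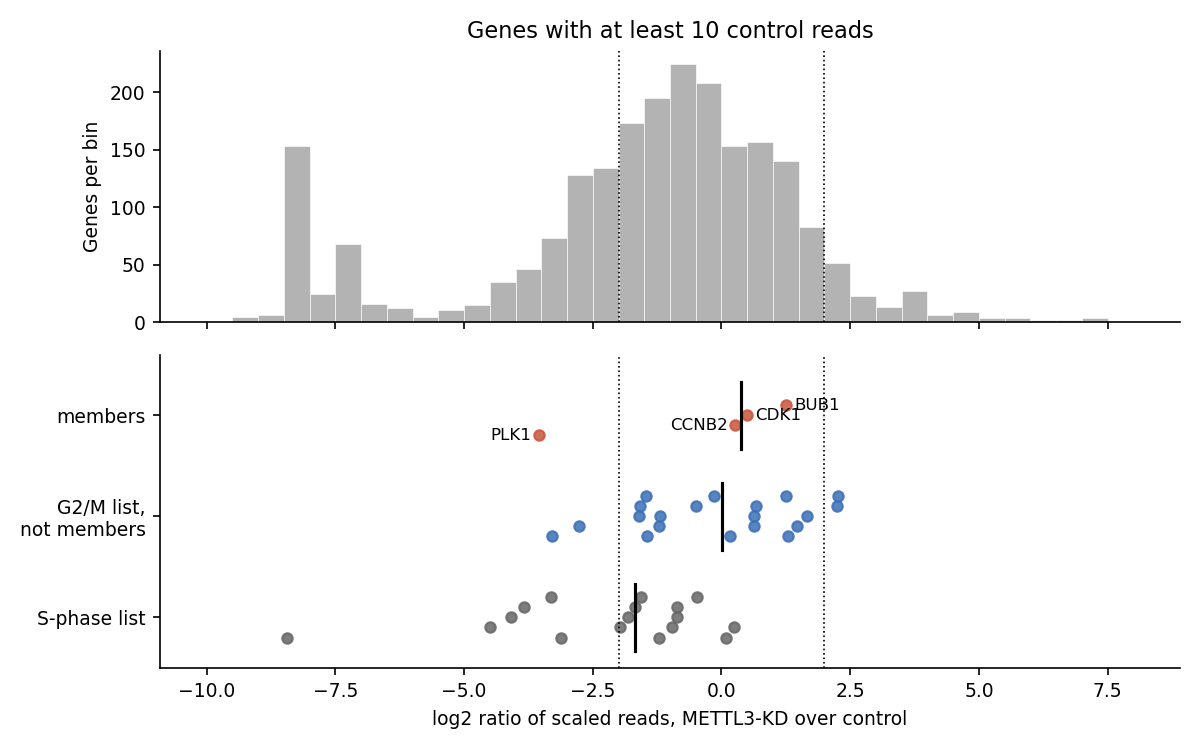
log2 ratio of scaled reads, METTL3-KD over control, for genes with at least 10 control reads: all such genes as a histogram in bins of 0.5 (top), and the members, the other G2/M genes and the S-phase genes as points with the median as a bar (bottom; vertical spread only separates points). Dotted lines mark -2 and 2; PLK1 (-3.54) lies left of all 20 other G2/M genes and within the spread of the S-phase genes.

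The other genes of mitotic control were taken from 6 lists by role with 57 genes in all, of which 49 were tested. Of these, 3 (6.12%) lay under -2, 35 (71.4%) above 2, and 33 (67.3%) had 0 control reads. The shares over all genes tested were 7.37%, 79.1% and 74.3%, and the counts by role below are to be read against them. In the PLK family, PLK2, a stress-responsive relative of PLK1, had 2095 and 2139 control reads and 415 and 428 METTL3-KD reads, with a log2 ratio of -0.14. PLK4, the kinase of centriole duplication, was not read in the control and had 11 and 10 METTL3-KD reads, while PLK3 and PLK5 had too few reads to be tested. PLK4 was tested through its METTL3-KD reads alone and could not have been under -2.

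Of the 13 regulators of mitotic entry, 11 were tested, of which 1 lay under -2 and 9 above 2. CDC25A, a phosphatase gene whose product activates cyclin-dependent kinases, had 553 and 545 control reads. With 0 METTL3-KD reads, it was at least 80.0-fold lower against the floor of 3 reads. That floor is far under the 17.2 reads of a METTL3-KD unit, and 0 reads allow up to 3.69 units. In units its interval, with an upper end of -0.28, excluded 0. FOXM1, the transcription factor that drives many G2/M genes, had 231 and 241 control reads and 35 and 40 METTL3-KD reads, with a log2 ratio of -0.46.

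The 9 spindle checkpoint genes beyond the members included 8 that were tested, 7 of them with 0 control reads and above 2. MAD1L1, which recruits MAD2 to unattached kinetochores, was the exception. Its control lanes held 261 and 243 reads and its METTL3-KD lanes 41 and 49, a log2 ratio of -0.29. BUB3, the partner of BUB1, was read only in the METTL3-KD input, with 71 and 70 reads. In the chromosomal passenger complex, in which AURKB works, BIRC5 (0 control, 119 and 147 METTL3-KD reads) and INCENP (0 control, 39 and 43) had input reads in METTL3-KD cells only. AURKB was alike, and 74.3% of all genes tested shared the 0 in the control input. The control m6A list nevertheless held an exonic peak in each of BIRC5 and INCENP, with a pileup of only 1 and 2 fragments. The 0 therefore does not show absence from control cells, though these peaks are thin evidence of presence. The other listed subunit gene, CDCA8, had 0 reads in both inputs.

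The APC/C list, which held subunits, partner enzymes and the inhibitor FBXO5, had 16 of 18 genes tested, with 1 under -2 and 11 above 2. FBXO5, which restrains the APC/C before mitosis, had 283 and 291 control reads and 6 and 9 METTL3-KD reads, a log2 ratio of -3.01 with an interval of -8.99 to 3.60 in units. UBE2S, the enzyme that extends ubiquitin chains on APC/C substrates, had a log2 ratio of -0.50, and the subunit gene CDC16 of -1.53. Of 10 genes of anaphase and cytokinesis, 1 lay under -2 and 5 above 2. ESPL1, the separase gene, had 565 and 562 control reads and 9 and 14 METTL3-KD reads, a log2 ratio of -3.38, the nearest to PLK1 of all the genes named by role. KIF20A, a kinesin that recruits PLK1 to the central spindle, stood at -0.98, and TPX2, which activates AURKA on the spindle, at 1.26.

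The m6A peaks were called by the authors once per condition on pooled lanes, 2298 in the control and 830 in METTL3-KD cells at a q value under 0.01. Of the 10 genes, 2 had a control peak, where 17.1% of the 8881 tested genes with a symbol did, and 0 had a METTL3-KD peak, where 5.7% did. The PLK1 peak had a pileup of 3 fragments, a fold enrichment of 3.97 over the local background and a −log10 q value of 5.20. A pileup of 3 or more was reached by 16.9% of control peaks. The BUB1 peak had a pileup of 1, a fold of 2.0 and a −log10 q value of 2.93, the values of a peak that rests on 1 fragment. The lower number of METTL3-KD peaks, with 4508 distinct positions in that m6A library and 7920 in the control one, moved with the absence of peaks in the members, and its part in it was not tested.

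In the G2/M list, 11 of 54 genes had a control peak and 2 had a METTL3-KD peak, and 2 of the control genes had it in a 3′UTR. In the S-phase list, 4 of 43 genes had a control peak and 1 had a METTL3-KD peak. In the lists by role, 8 of 57 genes had a control peak and 7 a METTL3-KD peak. The control list held exonic peaks in BIRC5, CDC27, INCENP, ANAPC1, ANAPC2 and ANAPC16. Those of the survivin gene BIRC5 and the APC/C subunit gene CDC27 were in the 3′UTR, as in PLK1. The CDC27 peak had the same pileup of 3, and the BIRC5 peak had a pileup of 1. The METTL3-KD list held exonic peaks in the transcription factor gene MYBL2 and in ANAPC1, the latter with a pileup of 5 in the last of 48 exons. The motifs beneath the 3′UTR peaks are shown for comparison with PLK1, and that of the METTL3-KD peak in ANAPC1 because it had the highest pileup in these lists.
BIRC5 3′UTR, control peak, plus strand, chr17:76220397-76220426: tgctgtgtgattAGACAggcccagtgagcc
CDC27 3′UTR, control peak, minus strand, chr17:45197864-45197893: aaacagagtaacTGACCttcatttctaggt
ANAPC1 coding sequence, METTL3-KD peak, minus strand, chr2:112526853-112526882: ccaatggtgatgTGACCgtgtctggcggtg

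Each capital stretch is the DRACH motif nearest to the summit. None of the nearest motifs shown for the other genes was GGACT, that of PLK1. The window of the ANAPC1 control peak, not shown here, held 4 DRACH motifs. GGACT was among them, though it was not the motif nearest to the summit. GGACT beneath a peak was therefore not particular to PLK1. The MYBL2 window held no DRACH motif. Among exonic METTL3-KD peaks, 85.7% of 407 windows held one. The ANAPC1 control peak, at 112566699 to 112566798 of chromosome 2, and the ANAPC1 METTL3-KD peak, at 112526841 to 112526946, were in different exons. ANAPC1 has pseudogene copies of similar sequence, so its values are uncertain.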

How the data were processed

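MIAPaCa-2 input and m6A libraries were compared between control and METTL3-KD cells. Reads were cleared of ribosomal sequence (Bowtie2), aligned to hg19 (HISAT2) and counted (featureCounts) by the authors. The deposited table holds raw counts of reads per gene in the 4 input lanes. The use of strand, multimapping reads and the annotation release are not given in the sources used here. The authors called peaks with MACS2 2.1.1, and the deposited columns hold the pileup, a signal in fragments, the fold enrichment, a ratio to the local background, and the −log10 q value. Their header gives a q cut-off of 0.05, and peaks under 0.01 were used here.

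Lanes were summed. log2 ratios used edgeR 4.0.16 TMM scaling with 2 as prior count and covered genes with 10 or more reads over both inputs. The scaling was first run on simulated data, but no result of that run is given here. The simulated run is therefore no check that the scaling holds for these strongly duplicated libraries. Genes beyond 2 were counted, and no p-value was computed. Units are reads divided by the lower mode of reads per gene, and rounded units gave exact 95% Clopper-Pearson and Poisson intervals. Features came from GENCODE release 44 on GRCh37, gene symbols by Ensembl identifier (8881 of 9931 matched). The members and lists were chosen with earlier results of these data known. Genes named were the members, METTL3, the 5 G2/M genes nearest to PLK1, G2/M genes under -2, and per role list the genes under -2, the 2 with most reads and those with exonic peaks. Guide and primer sequences came from the study's supplement and were matched to the genome.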

Additional observations from a re-analysis of the deposited data

How the results depend on the processing

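Of 117 recomputed values, 84 stayed within the main interval or within 1.5 times the main count, 33 moved and 0 reversed. A value was called reversed only where a main log2 ratio beyond 2 changed sign, which only PLK1 could meet. The sign changes of CDK1, CCNB2 and BUB1 given below were counted as moved. The PLK1 log2 ratio was negative under all 11 settings. It moved to -4.86 with total count scaling, to -2.85 with reads divided by the lower mode and to -8.32 with the METTL3-KD reads equal to those of ERN2 left out, an alternative chosen after seeing the data. Without a lane it was between -3.69 and -3.05. DESeq2 size factors gave -3.30. Relative to TMM, DESeq2 size factors shifted the median of genes read in both inputs by 0.26 and total counts by -1.36, and under total counts CDK1 (-0.86), CCNB2 (-1.09) and BUB1 (-0.11) fell under 0. The count of G2/M genes under -2 was 2, against 8 with total counts and 8 with a threshold of 1. The count of control peaks in members was 2, against 1 at a q value under 0.001 and 1 at a fold above 2, with BUB1 left out in each case. With lanes as replicates in edgeR, PLK1 had a log2 ratio of -3.31 both without and with the replicate block, which changed none of the member or G2/M counts. The lane number is the only pairing, and variation between cultures was not measured. A control gene at 0 reads could still hold up to 3.69 units, and no library was repeated.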
